A study of Mus musculus with 4 samples.

Results

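The RUNX transcription factors, their partner subunit CBFB and the ETO-family corepressors were measured by 22 of the 45101 probe sets of a mouse expression array. The members were the probe sets whose platform annotation names exactly Runx1, Runx2, Runx3, Cbfb, Runx1t1, Cbfa2t2 or Cbfa2t3 and no other gene, whatever their level. Of these 7 genes 6 had a named probe set, namely Runx1 with 6, Runx3 with 2, Cbfb with 1, Runx1t1 with 6, Cbfa2t2 with 3 and Cbfa2t3 with 4, and Runx2 was not analysed here. The RNA came from BA/F3, a mouse cell line that needs interleukin 3 to grow and is often taken as a stand-in for early B cells. Of 12 early B cell markers with a probe set only Cd79b averaged 4 or more on the log2 scale, at 8.31 to 8.82. Cd79a read 4.47 in the titled fusion library of replicate 2 and 2.69 to 2.90 in the others, while Ebf1, Pax5, Rag1, Rag2, Vpreb1 and Il7r lay at background, below 2.3 in each library.

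In their titles, source names and genotypes, 2 libraries are from a line in which the human fusion ETV6-RUNX1, also written TEL-AML1, can be induced, and 2 are from BA/F3 cells whose genotype is negative for it. Fusion and control cells alike had received mifepristone, the inducing drug, at 32.5 pM for 16 h before total RNA was taken. The free-text description field exchanges the condition of the replicate 1 libraries and gives the same condition as the title for those of replicate 2. Libraries are named below by title, and tests were run both by title and by description. For some single genes and probe sets the difference is given in 1 of these groupings only. The labels do not say how many clones carry the fusion gene, nor whether the replicates came from separate cultures, so p-values measure only the spread between these libraries, which may be technical.

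RUNX proteins bind DNA through the conserved runt domain, and CBFB, which does not itself touch DNA, raises the affinity of that binding. RUNX1 is required for the first blood stem cells and takes part in B-cell and megakaryocyte development, while RUNX3 is best known from cytotoxic T cells. The ETO proteins RUNX1T1, CBFA2T2 (MTGR1) and CBFA2T3 (MTG16 or ETO2) do not bind DNA on their own. They link DNA-bound factors to NCOR and histone deacetylases, and RUNX1T1 and CBFA2T3 are fused to RUNX1 in myeloid leukemias. RUNX1 and RUNX3 are each transcribed from a distal and a proximal promoter.

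The distal promoters are shown because Runx1 and Runx3, the members that differed most between libraries, share a sequence there. RefSeq promoter windows of the mouse build GRCm38.p6, from 250 bases before to 50 bases after a start, were at hand for 5 of the 6 measured genes, 8 windows in all. They were searched for the RUNX core motif TGTGGT on both strands, which reads ACCACA on the other strand. The windows of the distal starts of Runx1 and of Runx3 each held 2 matches, and the other 6 windows held none. Among all 32851 windows, 16.8% held at least 1 match and 1.81% at least 2. The 250 bases before each distal start follow, 5′ to 3′ along the gene, on the minus strand at chr16:92826075-92826324 for Runx1 and on the plus strand at chr4:135120395-135120644 for Runx3, with the motif in capitals.
Runx1 distal: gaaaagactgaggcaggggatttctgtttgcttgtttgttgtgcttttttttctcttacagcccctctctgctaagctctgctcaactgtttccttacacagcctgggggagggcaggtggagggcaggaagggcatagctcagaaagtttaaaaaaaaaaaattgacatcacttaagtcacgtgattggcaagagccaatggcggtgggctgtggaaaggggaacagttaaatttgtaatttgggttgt
Runx3 distal: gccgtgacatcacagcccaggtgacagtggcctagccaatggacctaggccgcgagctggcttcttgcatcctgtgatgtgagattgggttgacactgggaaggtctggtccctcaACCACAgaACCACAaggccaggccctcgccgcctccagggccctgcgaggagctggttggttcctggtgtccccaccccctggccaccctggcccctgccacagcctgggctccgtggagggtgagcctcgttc

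The matches lay 134 and 126 bases before the start in Runx3 and began 29 and 37 bases after it in Runx1, outside the stretch printed for that gene. The 30 bases around them lie at chr16:92826025-92826054 on the minus strand and at chr4:135120503-135120532 on the plus strand.
Runx1 site: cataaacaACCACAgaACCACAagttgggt
Runx3 site: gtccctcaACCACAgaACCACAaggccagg
The longest stretch that the 2 windows have in common is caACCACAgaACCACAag, 18 bases with both motifs in it. Both motifs with exactly GA between them, 14 bases in all, occurred on either strand in 4 of all windows, 0.0122%. These were the windows of Runx1, Runx3, Runx2 and the predicted gene Gm16225, whose window covers the same bases as that of Runx3 on the opposite strand. Pairs with other bases between the motifs were not counted. A match is a description of letters, and binding was not measured.

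Values below are GCRMA values on the log2 scale as the authors deposited them, where a difference of 1 is a 2-fold difference. The lowest value in every library was 2.23, and a value near it is background. Some probe sets read 1 identical higher value in all 4 libraries, such as Csf1r at 3.286, so the lowest reading differs between probe sets. Tests were run on probe sets that averaged 4 or more across the libraries, which left 15 of the 22 members and 17720 probe sets in all. In a bulk RNA sample, fewer cells of a type and less RNA per cell cannot be told apart.

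Runx1 transcript was detected in all 4 libraries, and all 6 of its probe sets passed the filter. Probe set 1427650_a_at read 7.50 in fusion replicate 1, 8.73 in control replicate 1, 8.98 in fusion replicate 2 and 8.40 in control replicate 2. Probe set 1440878_at read 6.81, 8.35, 7.48 and 6.70 in the same order, and 1422865_at read 6.67, 7.97, 7.16 and 6.98. At each of these 3 the libraries described as fusion-expressing, control replicate 1 and fusion replicate 2, lay above both others, so the groups did not overlap by description and did overlap by title. Groups failed to overlap in this direction at 25.3% of all tested probe sets.

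The other 3 probe sets of Runx1 separated the libraries less. Probe set 1452530_a_at read 4.45 in fusion replicate 1 and an identical 5.40 in the other libraries. At 1452531_at both replicate 2 libraries read 5.49, against 5.51 in fusion replicate 1 and 5.73 in control replicate 1. Identical readings in at least 2 libraries occurred at 5.96% of tested probe sets. Whether such a reading is background for its probe set was not tested. Probe set 1422864_at read 5.21, 5.80, 4.79 and 4.71, so both replicate 1 libraries lay above both replicate 2 libraries.

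Control replicate 1 was the single highest library at 4 of the 6 Runx1 probe sets, and fusion replicate 1 the single lowest at 3. Between these libraries, the pair whose labels conflict, fusion minus control of Runx1 ran from -1.55 to -0.23. Between the replicate 2 libraries, whose labels agree, fusion minus control was 0.58 at 1427650_a_at and 0.78 at 1440878_at. The third bright probe set, 1422865_at, differed there by only 0.18, although all 3 differed by more than 1 in the replicate 1 pair, as did 13.0% of tested probe sets. With 1 library each, these pair differences have no replicate check.

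No Runx1 probe set passed an adjusted p of 0.05 in limma in either grouping. By title 0 of all tested probe sets passed (background 0%), and 50 had an unadjusted p under 0.05 (0.282%), none of them a member. By description 2 of all passed (0.0113%), neither of them a member. The largest Runx1 difference by description was at 1440878_at, 1.16 (SE 0.36, 95% interval 0.13 to 2.19, limma adjusted p = 0.22). The libraries with fusion expression in their description were 2.24-fold higher, at 7.92 ± 0.62 (SD, n = 2) against 6.75 ± 0.08. This was the 1 Runx1 probe set with an unadjusted p under 0.05 by description, where 19.7% of all tested probe sets had one. The difference was 0.73 without control replicate 1 and 1.60 without fusion replicate 2. By title it was -0.38, with a 95% interval of -2.37 to 1.60, and turned to 0.45 without control replicate 1. The largest Runx1 difference by title was -0.56, at 1422865_at (SE 0.47, 95% interval -1.91 to 0.78). The mouse probe sets may or may not detect the human fusion transcript, which was not tested.

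**Figure D1:**
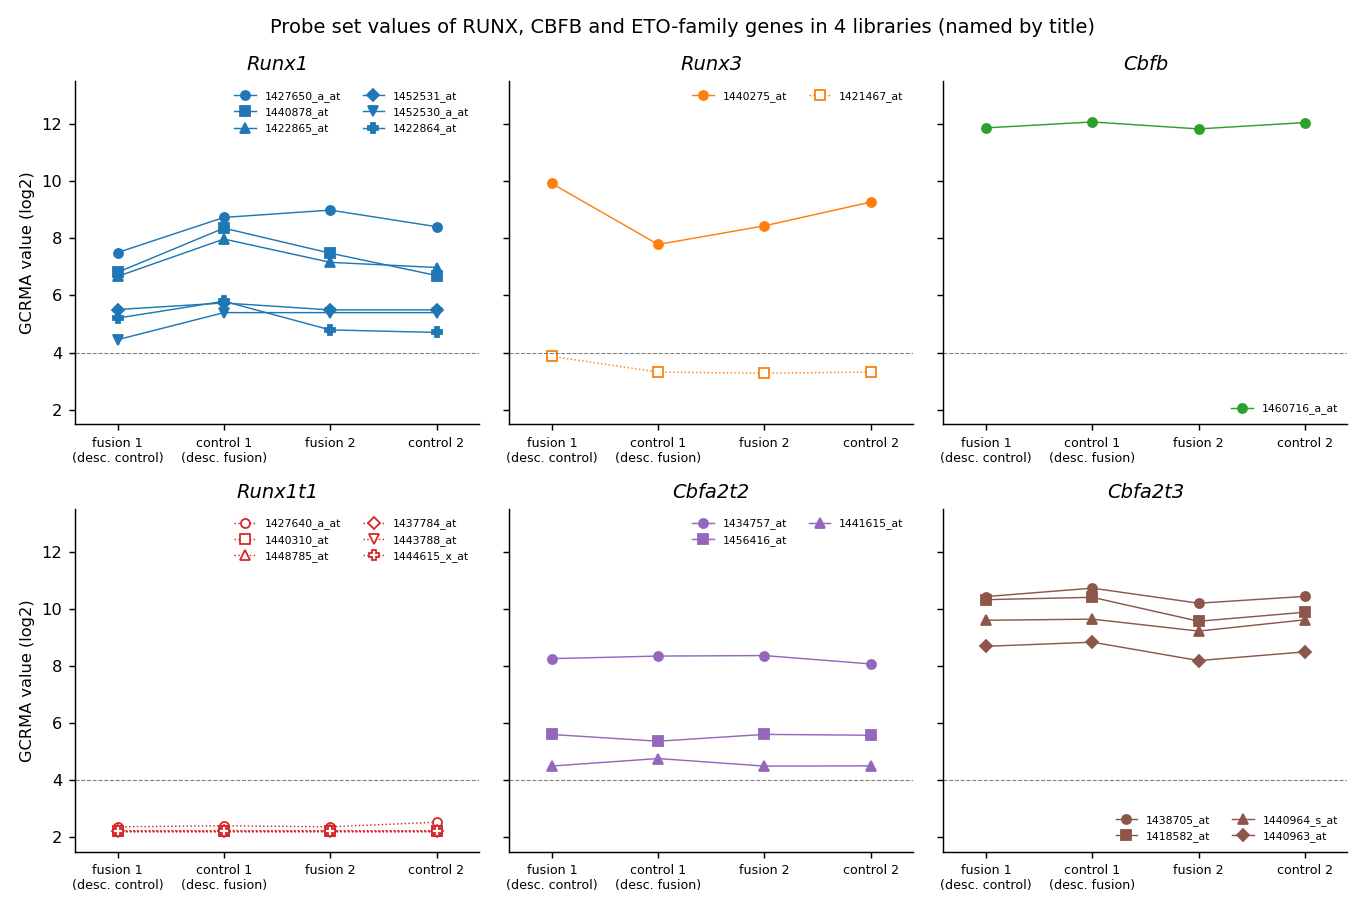
Deposited GCRMA values (log2, vertical axis) of each probe set of the 6 measured genes in the 4 libraries, named by title, with the description given where it differs; lines join the readings of one probe set, open symbols mark probe sets below the filter, and the dashed line is the filter at 4. Runx3 probe set 1440275_at ran from 7.78 to 9.92, while Cbfb stayed between 11.83 and 12.07 and Runx1t1 lay at background.

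Runx3, the paralogue of Runx1, had the widest range of the 15 tested member probe sets. Probe set 1440275_at read 9.92 in fusion replicate 1, 9.27 in control replicate 2, 8.43 in fusion replicate 2 and 7.78 in control replicate 1. Its highest and lowest readings, both from replicate 1, were 4.38-fold apart. The libraries described as control thus lay above both described as fusion-expressing, opposite to the order at the 3 bright Runx1 probe sets. Groups failed to overlap in this direction at 25.1% of tested probe sets.

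By description Runx3 was 2.79-fold lower in the libraries called fusion-expressing, at 8.11 ± 0.46 (SD, n = 2) against 9.59 ± 0.46. The log2 difference was -1.48 (SE 0.37, 95% interval -2.52 to -0.44, limma adjusted p = 0.18), and its size exceeded that of 96.4% of tested probe sets. It did not pass the threshold. By title the difference was 0.65 with a 95% interval of -1.64 to 2.94, and its size exceeded that of 96.6% of tested probe sets. It was made up of 2.13 in the replicate 1 pair and -0.83 in the replicate 2 pair. It turned to -0.09 when either replicate 1 library was left out. The other probe set, 1421467_at, lay below the filter at 3.87 in fusion replicate 1 and at 3.28 to 3.32 in the other libraries.

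Cbfb, the common partner subunit, differed little between libraries at its single probe set, 1460716_a_at. It read 11.86 in fusion replicate 1, 11.83 in fusion replicate 2, 12.07 in control replicate 1 and 12.05 in control replicate 2. Both libraries titled fusion therefore lay below both titled control, as happened at 6.04% of tested probe sets. Fusion minus control was -0.21 in the replicate 1 pair and -0.22 in the replicate 2 pair. The mean difference by title was -0.21 (SE 0.15, 95% interval -0.63 to 0.20, limma adjusted p = 1). By description it was -0.01, with an interval of -0.42 to 0.40.

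Cbfa2t3, the ETO-family corepressor found with TAL1 and GATA factors in blood progenitors, was measured by 4 probe sets, and all were tested. Probe set 1438705_at read 10.43 in fusion replicate 1, 10.72 in control replicate 1, 10.19 in fusion replicate 2 and 10.43 in control replicate 2. Probe set 1418582_at read 10.32, 10.40, 9.56 and 9.88 in that order. At all 4 probe sets control replicate 1 was the highest library and fusion replicate 2 the lowest. The remaining 2, 1440964_s_at and 1440963_at, read 9.60, 9.64, 9.22 and 9.61, and 8.69, 8.83, 8.19 and 8.49. These last 2 share a source sequence in the annotation, and all 4 are annotated to the same gene, so they are not independent measurements.

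Each Cbfa2t3 probe set read lower in the titled fusion library within both replicate pairs, with differences of -0.29 to -0.04 in replicate 1 and -0.39 to -0.24 in replicate 2. Both pair differences were below 0 at 13.3% of all tested probe sets. By title the mean differences were -0.20 to -0.27, each with limma adjusted p = 1 and a 95% interval that holds 0. The groups by title did not overlap at 2 of the 4, against 6.04% of all in this direction. Both separations were narrow. The higher fusion and the lower control library read 10.427 and 10.434 at 1438705_at, and 9.598 and 9.614 at 1440964_s_at. Without fusion replicate 2 the difference of 1440964_s_at was -0.03, and without control replicate 1 that of 1438705_at was -0.12. With each library centred on its median, the replicate 1 difference of 1440964_s_at became 0.01 and that of the other 3 stayed below 0. At 1418582_at and 1440963_at the libraries of replicate 2 lay below those of replicate 1, with mean differences of -0.64 and -0.42, larger in size than those by title or by description. The mean difference by title turned positive at 1418582_at without control replicate 1 (0.06) and without fusion replicate 2 (0.18), and at 1440963_at without fusion replicate 2 (0.02).

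Cbfa2t2, the corepressor also known as MTGR1, varied least among the ETO-family genes that were detected. Probe set 1434757_at read 8.26 in fusion replicate 1, 8.35 in control replicate 1, 8.36 in fusion replicate 2 and 8.07 in control replicate 2. The dimmer probe sets 1456416_at and 1441615_at read between 5.37 and 5.61 and between 4.50 and 4.76. At the latter 3 libraries read 4.50 and control replicate 1 read 4.76. The 3 probe sets spanned 0.24 to 0.29 over the libraries and did not share an order: control replicate 1 was lowest at 1456416_at and highest at 1441615_at. Differences by title ran from -0.13 to 0.13 and by description from -0.10 to 0.19, with limma adjusted p-values of 1 and of 0.59 to 0.80.

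Runx1t1, the founding ETO gene, was at background. Its 6 probe sets were all below the filter. Probe set 1427640_a_at read 2.37 in both libraries titled fusion, 2.41 in control replicate 1 and 2.53 in control replicate 2, and the other 5, 1440310_at, 1448785_at, 1437784_at, 1443788_at and 1444615_x_at, read 2.23 or 2.24 in each library. Transcript was not detectable by these probe sets, and none was tested.

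**Figure D2:**
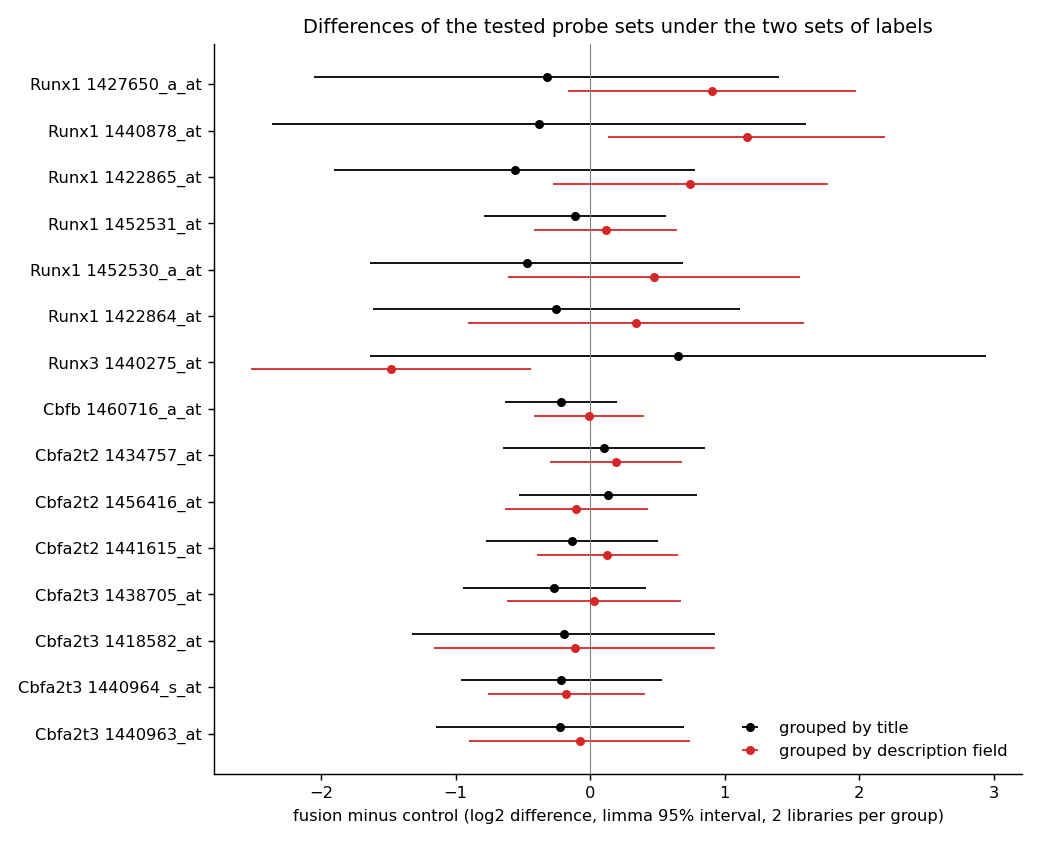
Fusion minus control (log2, horizontal axis) at the 15 tested member probe sets, grouped by title (black) and by the description field (red); points are differences of the means of 2 libraries per group and bars are limma 95% intervals. By description the intervals of Runx1 1440878_at (0.13 to 2.19) and Runx3 1440275_at (-2.52 to -0.44) leave out 0; all other intervals hold 0.

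Over the 15 tested member probe sets, fusion minus control by title had a median of -0.22 and was below 0 at 12, against a median of -0.01 and 52.7% below 0 over all tested probe sets. Several probe sets are annotated to the same gene, so these are 5 genes rather than 15 independent measurements. By description the median was 0.11, with 9 above 0, against -0.01 and 48.4% above 0 over all. Of the title, description and replicate contrasts, the title contrast was the largest in size at 6 members, among them Cbfb and 2 probe sets each of Cbfa2t2 and Cbfa2t3, against 11.0% of all. The sixth was 1452530_a_at of Runx1, where 3 identical readings make the 3 contrasts equal in size. That tie is counted for the members, whereas the 11.0% counts only probe sets where the title contrast was strictly the largest. At the Cbfa2t2 and Cbfa2t3 probe sets its lead was small. Title and replicate contrasts were -0.267 and -0.26 at Cbfa2t3 1438705_at, and -0.217 and -0.201 at 1440964_s_at. They were -0.134 and -0.130 at Cbfa2t2 1441615_at, and 0.132 and 0.106 at 1456416_at. At Cbfb the title contrast was -0.214, the replicate contrast -0.028 and the description contrast -0.007. The description contrast was the largest at 5 members, against 50.9% of all, and the replicate contrast at 4, against 34.6%.

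The titled difference had opposite signs in the replicate pairs at 6 of the 15 tested member probe sets, against 72.9% of all tested probe sets. These were 4 of the 6 of Runx1, that of Runx3 and 1 of Cbfa2t2. At the other 2 of Runx1 the replicate 2 difference was 0. Cbfb, all 4 probe sets of Cbfa2t3 and 1 of Cbfa2t2 were below 0 in both pairs, against 13.3% of all, and 1 of Cbfa2t2 was above 0 in both, against 11.5%. In the replicate 2 pair these Cbfa2t2 differences were only -0.0065 (1441615_at) and 0.030 (1456416_at). The member differences in the replicate 1 pair reached 2.13, while those of Cbfb, Cbfa2t2 and Cbfa2t3 were at most 0.39 in either pair.

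**Figure D3:**
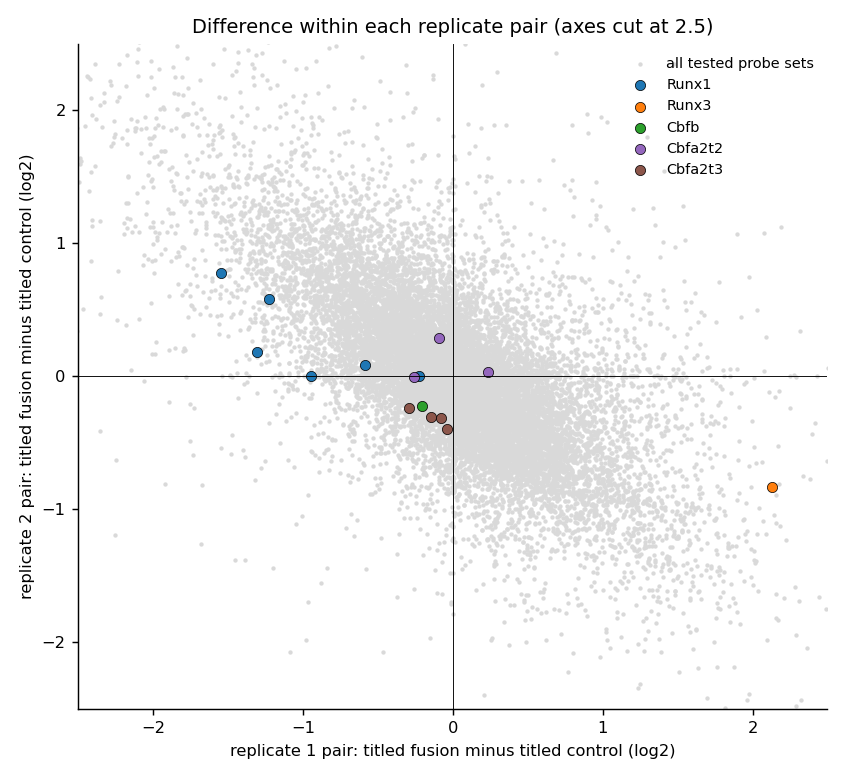
Titled fusion minus titled control (log2) in the replicate 1 pair (horizontal axis) and the replicate 2 pair (vertical axis) for the 15 tested member probe sets (coloured) and all 17720 tested probe sets (grey, with axes cut at 2.5). Runx1 lies at the left at or above 0, Runx3 at the lower right (2.13 and -0.83), and Cbfb and Cbfa2t3 in the lower left quadrant.

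Proteins that bind RUNX or ETO-family proteins were measured as a list of 42 genes, of which 39 had a named probe set and 31 were tested at the brightest. Both lists given here were chosen with earlier results of these data known. By title 19 were lower and 12 higher, with a median of -0.03, and 0 passed the adjusted threshold or an unadjusted p under 0.05. By description 22 were higher and 9 lower, with a median of 0.23, and 0 passed the adjusted threshold. There 11 had an unadjusted p under 0.05, 10 higher and 1 lower, which is 35.5% against 19.7% of all tested probe sets, of which 10.6% were higher and 9.14% lower. The bases differ, as the list counts each gene once at its brightest probe set and the latter shares count every tested probe set.

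Tal1, the haematopoietic factor that assembles with ETO-family corepressors, differed by 1.39 (SE 0.15) by description. Kat2b, an acetyltransferase, differed by 0.98 (SE 0.17) and Smad3, a transducer of TGF-beta signals that binds RUNX proteins, by 1.85 (SE 0.35). Hdac1, a histone deacetylase of the corepressor complexes, differed by -0.72 (SE 0.11). None of these 4 passed the adjusted threshold. By title the smallest unadjusted p-values were those of Lmo2, a bridging protein of TAL1 complexes, at -0.85 (SE 0.41), and Gata1, the erythroid and mast cell factor, at -0.65 (SE 0.32). Gata1 was lower in the titled fusion library of both pairs, with differences of -0.835 and -0.455.

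Textbook RUNX target genes formed a list of 40, of which 36 had a named probe set and 14 were tested. The list holds Runx1 and Runx3 themselves. By description 7 were higher and 7 lower, with a median of -0.01. There 3 had an unadjusted p under 0.05, 21.4% against 19.7% of all, namely Itgal, Ccnd3 and Runx3 itself. The counts and medians of this list thus reuse the readings of Runx1 and Runx3 and are not separate from them. Here too each list gene counts once at its brightest probe set, and the share of all counts every tested probe set. By title 10 were lower and 4 higher, with a median of -0.17 and no unadjusted p under 0.05. No target passed the adjusted threshold in either grouping.

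Itgal, the integrin alpha L chain of LFA-1 and a known RUNX3 target in leukocytes, had the largest difference of the tested targets. It read 9.53 in control replicate 1 and 9.02 in fusion replicate 2 but 5.71 in fusion replicate 1 and 5.50 in control replicate 2. It was therefore high in the 2 libraries where Runx3 was low and the bright Runx1 probe sets were high. Its difference by description was 3.67 (SE 0.26, limma adjusted p = 0.11). Of all tested probe sets, 25.3% likewise had groups by description that did not overlap in this direction. Whether Runx1 or Runx3 acted on Itgal was not tested. Ccnd3, cyclin D3, was higher by 1.08 (SE 0.15) without passing the adjusted threshold. Cdkn1a, the cell-cycle inhibitor p21, differed by 1.06 (SE 0.38), with readings of 9.92, 11.36, 11.58 and 10.90 from fusion replicate 1, control replicate 1, fusion replicate 2 and control replicate 2. By title the smallest unadjusted p-values belonged to Nfe2, at -0.35 (SE 0.24), and Cd79b, at -0.34 (SE 0.25).

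**Figure D4:**
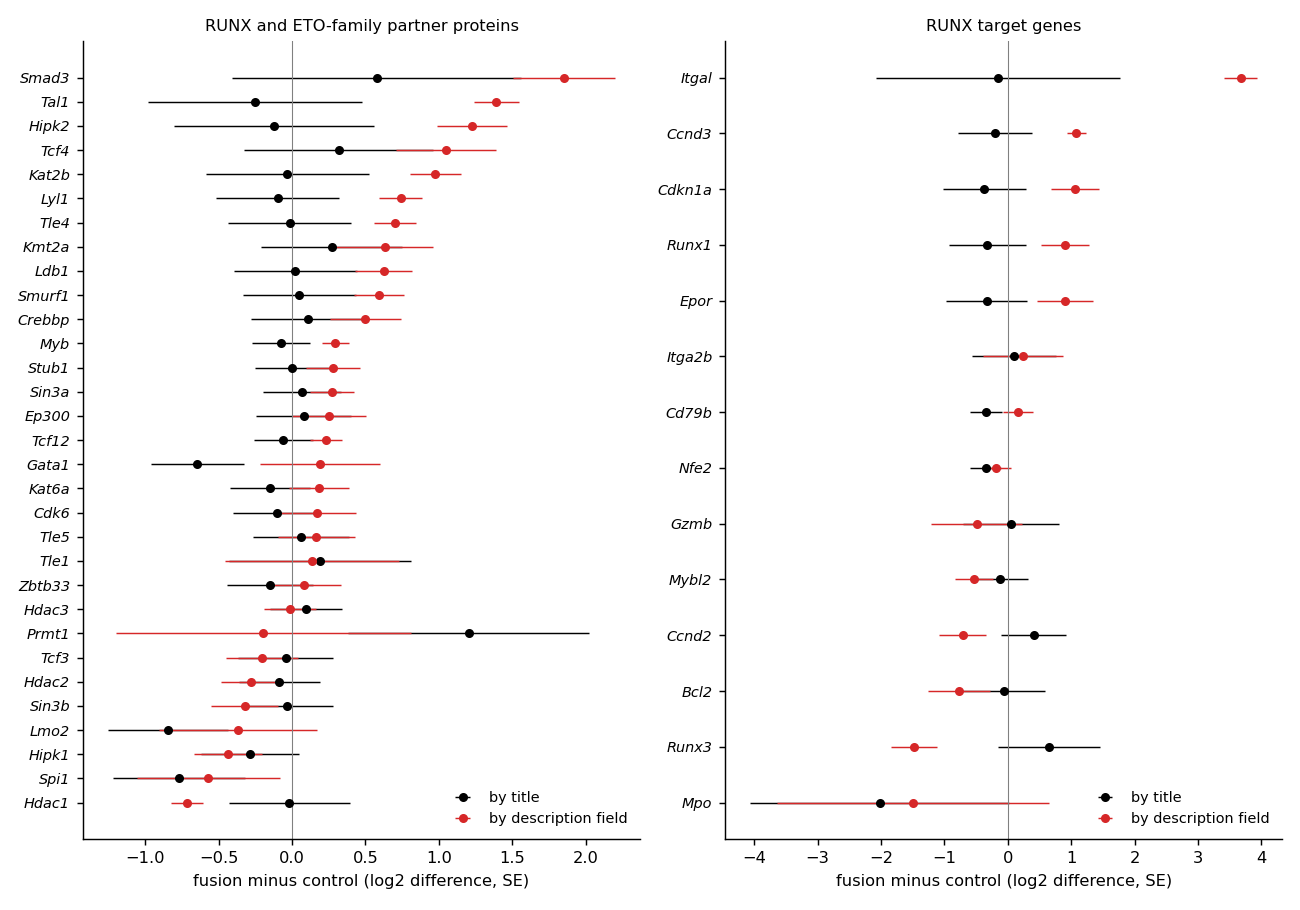
Fusion minus control (log2 difference, horizontal axis) at the tested probe set of each gene in the list of RUNX and ETO-family partner proteins (left, 31 genes) and of RUNX targets (right, 14 genes), by title (black) and by description (red), with SE from limma. Smad3 (1.85) and Itgal (3.67) had the largest differences by description.

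Likeness was measured as the root mean square difference of mean-centred log2 values over the 4 libraries, against 7858 genes with a mean of at least 6. Only Runx1 and Runx3 spanned at least 1 at their brightest probe set. Galnt6 (0.069), Cdkn1a (0.083) and Exd1 (0.085) were nearest to Runx1, and Sapcd2 (0.072), Mpzl1 (0.13) and Iars2 (0.16) to Runx3. With 4 libraries such likeness describes only the direction and size of the differences between these libraries.

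Over the whole series, 17517 to 17688 probe sets per library reached a value of 4. Of 16 genes that mark mast cells, basophils and other myeloid cells 7 were tested; 5 were higher by description, with a median of 0.31, and all 7 lower by title, with a median of -0.86. Their summed linear level was 15378 in control replicate 1 and 8570 in fusion replicate 2, against 9467 in fusion replicate 1 and 8887 in control replicate 2, and Kit, Elane and Cd33 lay at background. Gata2 and Fcer1g made up 87.4% to 98.5% of that sum, and the other 14 genes summed to 1934 in control replicate 1, 680 in fusion replicate 2, 145 in fusion replicate 1 and 571 in control replicate 2. Fcer1a, a chain of the mast cell IgE receptor, read 9.91 in control replicate 1 and 7.69 in fusion replicate 2 and lay near background in the others, so it passed the filter only through the libraries where it was high. By description the other 6 differed by 3.60 (Hdc), 2.13 (Ms4a2), 0.31 (Fcer1g), 0.20 (Gata2), -0.84 (Prtn3) and -1.49 (Mpo). Of the 7, none passed the adjusted threshold. Mpo read 2.34 in fusion replicate 1, 2.864 in control replicate 1, 4.485 in fusion replicate 2 and 7.996 in control replicate 2. It passed the filter through its reading in control replicate 2, on which its differences largely rest. Mpo is also among the tested RUNX targets. None of the 7 T cell markers with a probe set was tested, while 3 of 6 macrophage, 4 of 8 erythroid and megakaryocyte, and 2 of 8 fibroblast and stromal markers were. The part of these markers in the Runx1 and Runx3 differences was not tested.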

How the data were processed

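Expression of 45101 probe sets in 4 libraries was deposited as log2 values. Per the submitters' processing notes, GCRMA 2.28.0 was used. Their range, 2.23 to 16.3, shows the log2 scale. What filters or batches were used was not given in the sources used here; arrays carry no read depth, so the number of libraries limits the precision. The design text speaks of promoter immunoprecipitation, but the labels' protocols describe total RNA, and the values were treated as RNA levels.

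After 64 control probe sets were left out, those with a mean of at least 4 were fitted with limma 3.58.1 in R 4.3.3 (lmFit, eBayes with trend, 2 residual degrees of freedom, two-sided, Benjamini-Hochberg adjustment over 17720). An exact permutation of 2 against 2 libraries cannot go below p = 0.333. The fit was tested on simulated data. Platform annotation gave 34958 probe sets 1 gene symbol, 932 several and 9211 none. Every member probe set is named. List genes are named by the 4 smallest p-values by description and the 2 smallest by title, and single markers were chosen after their values were seen. Members and lists were chosen with earlier results of these data known. Promoter sequences are from RefSeq, GRCm38.p6. Alternatives were the filter, scaling, variance trend, replicate block and each library left out.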

Additional observations from a re-analysis of the deposited data

How the results depend on the processing

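No member passed an adjusted p of 0.05 under any alternative, where the lowest was 0.093, at Runx1 1440878_at by description with the replicate block. Another filter, variance trend or replicate block leaves the differences themselves as they are; of 180 differences under another scaling or without 1 library 24 reversed. The count past the threshold by title stayed 0 under all alternatives. By description it was 2, and became 0 without the filter, 10 with median centring, 12 with quantile normalization, 0 with the replicate block and 0 with any library left out; fewer libraries leave 1 arm with a lone library, assumed to vary like the other. Deviations of same-numbered libraries from their group means correlated at -0.20 by title and 0.58 by description over probe sets, and nothing says that numbers pair libraries. The crossed pairing, chosen after seeing the data, called 0 probe sets by title.

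The cause of these reversals was not tested, and they include the largest title difference of the members, that of Runx3. Leaving out 1 library moved the title difference over -1.07 to 0.42 (Runx1 1427650_a_at), -1.21 to 0.45 (1440878_at), -0.23 to 0.007 (1452531_at), -0.80 to 0.29 (1422864_at), -0.092 to 1.39 (Runx3 1440275_at), -0.036 to 0.24 (Cbfa2t2 1434757_at), -0.58 to 0.18 (Cbfa2t3 1418582_at) and -0.47 to 0.024 (1440963_at). It moved the description difference over -0.007 to 0.23 (Runx1 1452531_at), -0.16 to 0.84 (1422864_at), -0.13 to 0.11 (Cbfb), -0.22 to 0.016 (Cbfa2t2 1456416_at), -0.004 to 0.26 (1441615_at), -0.23 to 0.29 (Cbfa2t3 1438705_at), -0.54 to 0.30 (1418582_at), -0.39 to 0.032 (1440964_s_at) and -0.40 to 0.24 (1440963_at). The description difference kept its direction but moved over 0.45 to 1.36 (Runx1 1427650_a_at), 0.73 to 1.60 (1440878_at) and 0.34 to 1.15 (1422865_at). By description Cbfb became 0.043 with quantile normalization and Cbfa2t3 1438705_at -0.007 with median centring. Values at background limit what can be said of Runx1t1.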
